A study of Mus musculus with 98 samples.

Results

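Skeletal muscle from mice with humanized livers was followed around the day, and the genes whose level there went up and down over 24 h were described by the time of their peak, by their amplitude and by what they are known to do. The muscle itself is mouse tissue, and the human cells sit in the liver. All 15 muscle libraries of the liver-humanized arm (Hu muscle) were used, out of 98 libraries in the series. They were taken at zeitgeber time (ZT, hours after lights on) 2, 6, 10, 14, 18 and 22, with 3 libraries each at ZT 2, 6 and 18 and 2 libraries each at ZT 10, 14 and 22. A 24 h cosine in ZT was fitted to each gene in these libraries alone, once with all 15 and once without the first replicate of ZT 6. The labels do not tie libraries to single animals, so p-values measure the spread between these libraries.

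The mice were male FRGN animals, 10 weeks old, which are Fah-/-, Rag2-/- and Il2rg-/- on a background that includes the non-obese diabetic strain. Without FAH, an enzyme of tyrosine breakdown, the mouse's own hepatocytes die unless the drug nitisinone (NTBC) is given, which leaves room for transplanted hepatocytes. Without RAG2 and the IL-2 receptor gamma chain the mice lack working lymphocytes and accept cells of another species. In the Hu arm the hepatocytes were human and only mice with over 70% repopulation were used. In the control arm (Mu muscle, 12 libraries, 2 at each of the same times) the hepatocytes were murine. Both arms shared the genotype, the cycles of NTBC, the sulfamethoxazole and trimethoprim antibiotic, the dextrose in the water and a high energy diet.

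In the molecular clock, BMAL1 (gene Arntl) and its partners CLOCK and NPAS2 switch on genes through E-box sequences, and among those genes are the Period and cryptochrome repressors, which then shut their own activators off. The REV-ERB receptors (Nr1d1, Nr1d2) repress Arntl, and the PAR bZIP activator DBP and the repressor NFIL3 compete for D-box sequences and pass the rhythm on. Skeletal muscle runs such a clock in its fibres, and it also receives daily signals from feeding, activity, temperature and glucocorticoid hormones.

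The libraries held 43.1 to 92.05 M (mega) counts each. Muscle markers were high throughout, with Ckm, the muscle creatine kinase, between 13370 and 26420 CPM (counts per M counts of the scaled library), and none of the 9 muscle fibre markers passed the rhythm test described next. The library labelled ZT 6 replicate 1 stood apart. Its mean correlation with the other libraries was 0.927, against 0.952 to 0.975 for the others, and 664 of 13469 genes lay more than 2-fold above the highest of the other 14 libraries, with 9 more than 2-fold below the lowest. The summed level of 5 red blood cell markers was 9836 CPM in it and 94.1 to 443 CPM in the other 14, and 12 of 14 tested cell division genes were more than 2-fold above all others. A list of 16 bone marrow and blood cell genes, put together after these values were seen, summed to 3337 CPM there and to 10.3 to 154 CPM elsewhere. ZT 14 replicate 2 came next, with 73 genes above and 212 below the rest by more than 2-fold, 1158 CPM of 6 metallothionein and acute phase genes, also listed after the values were seen, against 41.4 to 177 CPM elsewhere, and the lowest level of the skeletal actin gene Acta1 (14410 CPM, against 26570 to 40650 CPM). In ZT 18 replicate 3, a list of 8 kidney tubule genes, likewise chosen after the values were seen, summed to 169.5 CPM, against 17.4 to 29.6 CPM elsewhere. Fat cell markers summed to between 413.5 and 3751 CPM. Fewer cells of a type and less RNA per cell cannot be told apart in such bulk samples. The part of these differences in the results was not tested. The count of rhythmic genes is therefore given with and without ZT 6 replicate 1, ZT 14 replicate 2 and ZT 18 replicate 3. For some single genes the result without ZT 6 replicate 1 or ZT 14 replicate 2 is given as well.

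With all 15 libraries, 135 of 13469 tested genes were rhythmic at an adjusted p under 0.05, which is 1.0% of them (edgeR quasi-likelihood test, Benjamini-Hochberg adjustment). Without ZT 6 replicate 1, 204 of 13477 passed, which is 1.51%. Both fits shared 123 genes, none of which moved its peak by more than 0.464 h, while 81 were gained and 12 were lost. At an unadjusted p under 0.05 there were 2404 and 2635 genes. The count was sensitive to single libraries. It fell to 57, 80 and 61 without ZT 2 replicates 1, 2 and 3, to 53 and 54 without ZT 6 replicates 2 and 3, to 55 without ZT 10 replicate 2, to 83 without ZT 18 replicate 1 and to 51 without ZT 22 replicate 2. The count was 142 without ZT 14 replicate 2 and 102 without ZT 18 replicate 3, with 97 and 92 of the 135 genes shared. There were 37 genes that passed in all 15 fits that left out 1 library, with Nrip1, Nfil3, Slc25a25, Auts2, Tob2, Adamtsl4, Tspan4 and Per3 the first by p, and 4 of them (Nrip1, Nfil3, Slc25a25 and Arrdc3) also passed under all 11 other settings tried (other tools, scalings, filters and models). Over the fits without 1 library no peak of the 135 moved by more than 0.865 h.

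More genes peaked around and after lights off than at any other time. By fitted peak, 57 of the 135 genes fell at ZT 12 to 18, 31 at ZT 18 to 24, 29 at ZT 6 to 12 and 18 at ZT 0 to 6, and the fullest 2 h bin was ZT 12 to 14 with 26 genes. Over all tested genes the peaks were nearly even, with 25.1%, 24.8%, 22.5% and 27.7% in those windows. Without ZT 6 replicate 1 the counts were 74, 36, 45 and 49, and without ZT 14 replicate 2 they were 48, 34, 45 and 15. The log2 amplitude, which is the distance from the fitted mean to the fitted peak, had a median of 0.66 among the rhythmic genes and of 0.15 over all tested genes. It ranged from 0.19 for Impa1 to 2.18 for Dbp, and 27 genes were over 1. The median standard error of a peak time was 0.666 h.

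**Figure D1:**
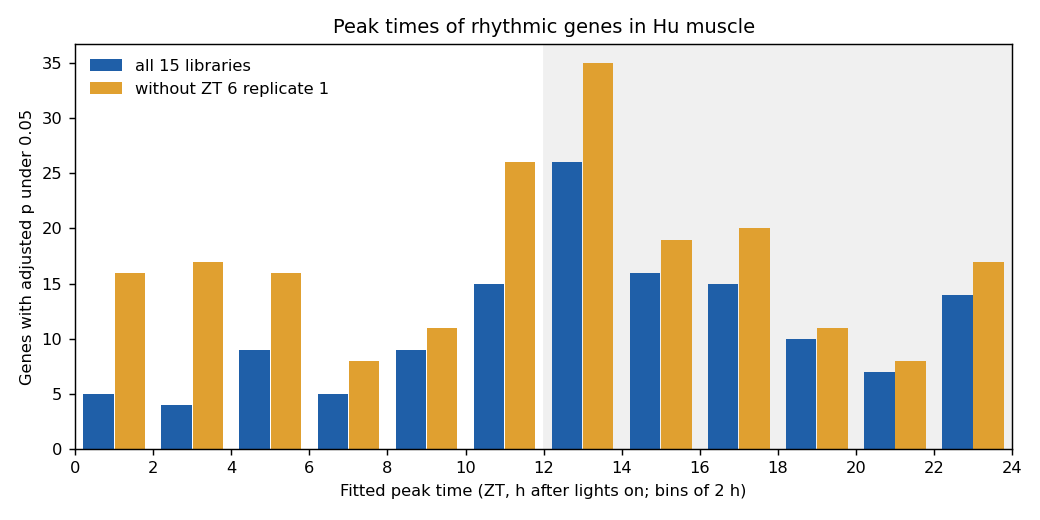
Number of genes with an edgeR adjusted p under 0.05 by fitted peak time in bins of 2 h (ZT, hours after lights on), for all 15 Hu muscle libraries (blue, 135 genes) and without ZT 6 replicate 1 (yellow, 204 genes); the shaded area is ZT 12 to 24. The ZT 12 to 14 bin is the fullest in both, with 26 and 35 genes.

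**Figure D2:**
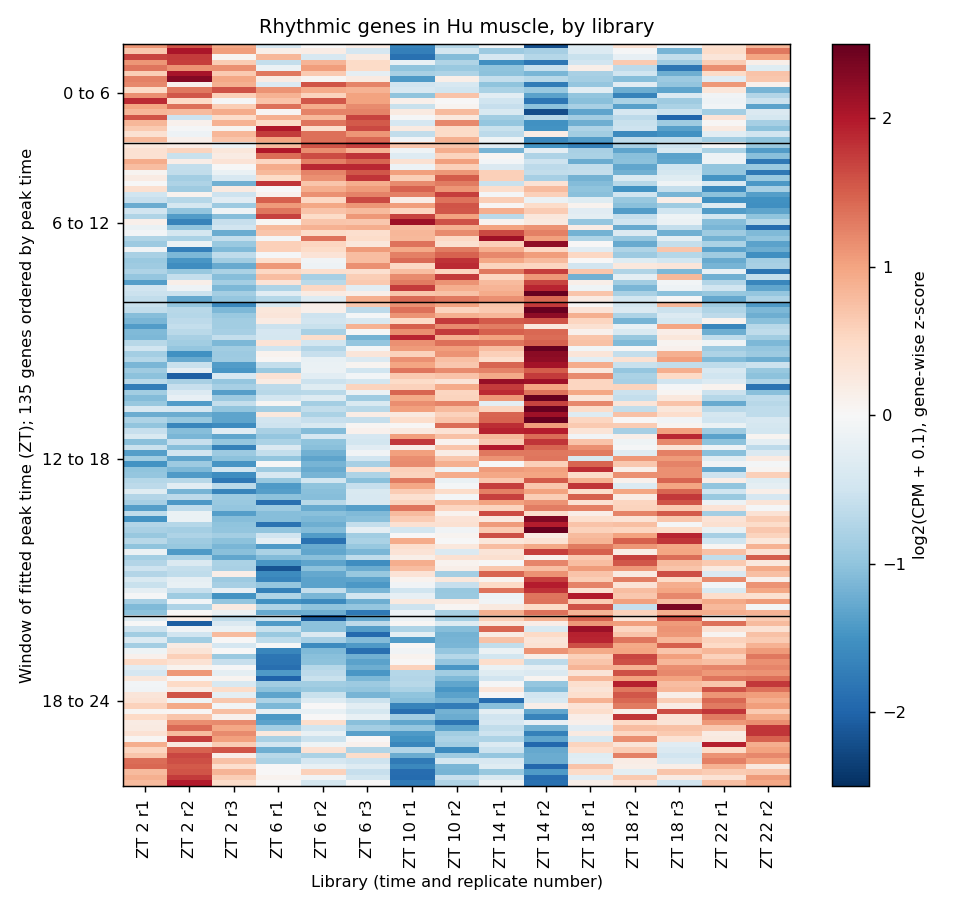
Level of the 135 rhythmic genes (rows, ordered by fitted peak time, lines between windows of 6 h) in each of the 15 Hu muscle libraries (columns), as gene-wise z-scores of log2(CPM + 0.1). The band of high values moves from the ZT 2 libraries at the top to those of ZT 22 at the bottom.

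The clock list had the highest share of rhythmic genes among the lists of more than 5 genes. Of the 18 genes of the clock list, 11 were rhythmic (10 without ZT 6 replicate 1, 13 without ZT 14 replicate 2 and 13 without both), against 1.0% of all tested genes. With edgeR, 17 of the 18 had an unadjusted p under 0.05, against 2404 of all 13469. The median log2 amplitude of the 18 was 1.004, against 0.15 over all tested genes. Levels below are given in CPM in the order of the replicate numbers, so that the first value at ZT 6 is the library that stood apart, and since CPM takes no account of gene length they are not compared between genes.

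Among the activators, Arntl (ENSMUSG00000055116) measured 17.6, 26.5 and 19.1 CPM at ZT 2, 3.99, 6.62 and 3.09 at ZT 6, 17.8 and 7.60 at ZT 10, 16.8 and 56.5 at ZT 14, 48.3, 50.3 and 37.9 at ZT 18, and 42.9 and 53.6 at ZT 22. The 5 libraries of ZT 18 and 22 lay above all 8 of ZT 2, 6 and 10, and those of ZT 14 fell on either side. The fit gave a log2 amplitude of 1.64 ± 0.25 (SE), a peak at ZT 19.2 ± 0.619 h and an edgeR adjusted p of 0.023 (0.0349 without ZT 6 replicate 1). Clock and Npas2, which encode its partners, had fitted peaks close by at ZT 19.9 ± 0.867 h and ZT 21.2 ± 0.708 h, with log2 amplitudes of 0.60 ± 0.14 and 1.99 ± 0.39. Neither passed with all libraries (adjusted p = 0.0872 and 0.102), and both passed without ZT 14 replicate 2. Arntl2 was low (0.934 CPM on average) and did not pass (adjusted p = 0.43).

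The REV-ERB genes came next in the day. Nr1d1 (ENSMUSG00000020889, REV-ERBα) measured 261, 223 and 227 CPM at ZT 2, 88.2, 211 and 139.7 at ZT 6, 46.4 and 49.4 at ZT 10, 46.9 and 64.0 at ZT 14, 109, 60.2 and 25.9 at ZT 18, and 231 and 78.3 at ZT 22. All 3 libraries of ZT 2 lay above every other library except ZT 22 replicate 1, and within ZT 18 and ZT 22 the replicates differed widely. Its fitted peak was at ZT 1.91 ± 0.755 h, with a log2 amplitude of 1.21 ± 0.24 and an adjusted p of 0.0339. Nr1d1 overlaps the thyroid hormone receptor gene Thra on the opposite strand; the library kit keeps strand, but whether the counting used it is not given in the sources used here. Nr1d2 (ENSMUSG00000021775, REV-ERBβ) measured 140.3, 97.7 and 107 CPM at ZT 2, 117, 163 and 178 at ZT 6, 109 and 147 at ZT 10, 87.9 and 71.1 at ZT 14, 50.7, 56.3 and 49.3 at ZT 18, and 85.8 and 39.3 at ZT 22. All 8 libraries of ZT 2, 6 and 10 lay above all 7 of ZT 14, 18 and 22. It peaked at ZT 6.77 ± 0.577 h, 4.86 h after Nr1d1, with a log2 amplitude of 0.80 ± 0.11 (adjusted p = 0.00808). Rora, which encodes an activator that binds the same sites, did not pass (log2 amplitude 0.09 ± 0.06, adjusted p = 0.627).

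All 3 Period genes were rhythmic, with fitted peaks between late day and dusk; the order of Per1 and Per2 was not resolved, given their standard errors. Per3 (ENSMUSG00000028957) measured 20.2, 12.3 and 16.9 CPM at ZT 2, 34.1, 46.1 and 57.5 at ZT 6, 40.0 and 41.4 at ZT 10, 29.3 and 12.4 at ZT 14, 12.5, 8.16 and 14.1 at ZT 18, and 9.60 and 5.35 at ZT 22. The 5 libraries of ZT 6 and 10 lay above the other 10. Its peak was at ZT 8.54 ± 0.490 h (log2 amplitude 1.3 ± 0.17, adjusted p = 0.00435). Per1 (ENSMUSG00000020893), which also answers to glucocorticoids, measured 29.5, 14.6 and 22.4 CPM at ZT 2, 65.4, 70.8 and 72.5 at ZT 6, 64.2 and 71.4 at ZT 10, 78.4 and 87.2 at ZT 14, 39.4, 11.6 and 20.2 at ZT 18, and 12.9 and 6.57 at ZT 22. The 7 libraries of ZT 6, 10 and 14 did not overlap with the other 8. The fitted peak lay at ZT 10.1 ± 0.497 h (log2 amplitude 1.58 ± 0.23, adjusted p = 0.0131). Per2 (ENSMUSG00000055866) measured 11.3, 2.39 and 4.25 CPM at ZT 2, 21.9, 19.5 and 34.1 at ZT 6, 30.7 and 42.9 at ZT 10, 29.3 and 20.2 at ZT 14, 9.47, 6.01 and 23.8 at ZT 18, and 3.40 and 3.79 at ZT 22. The libraries of ZT 6, 10 and 14 were again the high ones, and only ZT 18 replicate 3, at 23.8 CPM, reached into their range. It peaked at ZT 10.8 ± 0.552 h (log2 amplitude 1.75 ± 0.28, adjusted p = 0.0299), a fitted change of 11.3-fold from trough to peak.

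Of the cryptochromes, Cry1 (ENSMUSG00000020038) measured 15.1, 15.5 and 12.6 CPM at ZT 2, 13.7, 13.9 and 16.4 at ZT 6, 22.3 and 24.4 at ZT 10, 24.5 and 21.9 at ZT 14, 27.3, 41.2 and 36.4 at ZT 18, and 16.5 and 38.2 at ZT 22. All 6 libraries of ZT 2 and 6 lay below all 9 later ones, although ZT 22 replicate 1, at 16.5 CPM, was barely above the 16.4 CPM of ZT 6 replicate 3. The peak was at ZT 16.8 ± 0.869 h, hours after the Period genes, with a log2 amplitude of 0.60 ± 0.12. It passed with all libraries (adjusted p = 0.0424) and not without ZT 6 replicate 1 (adjusted p = 0.0594). Cry2 had a log2 amplitude of 0.43 ± 0.11 and did not pass (adjusted p = 0.108).

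**Figure D3:**
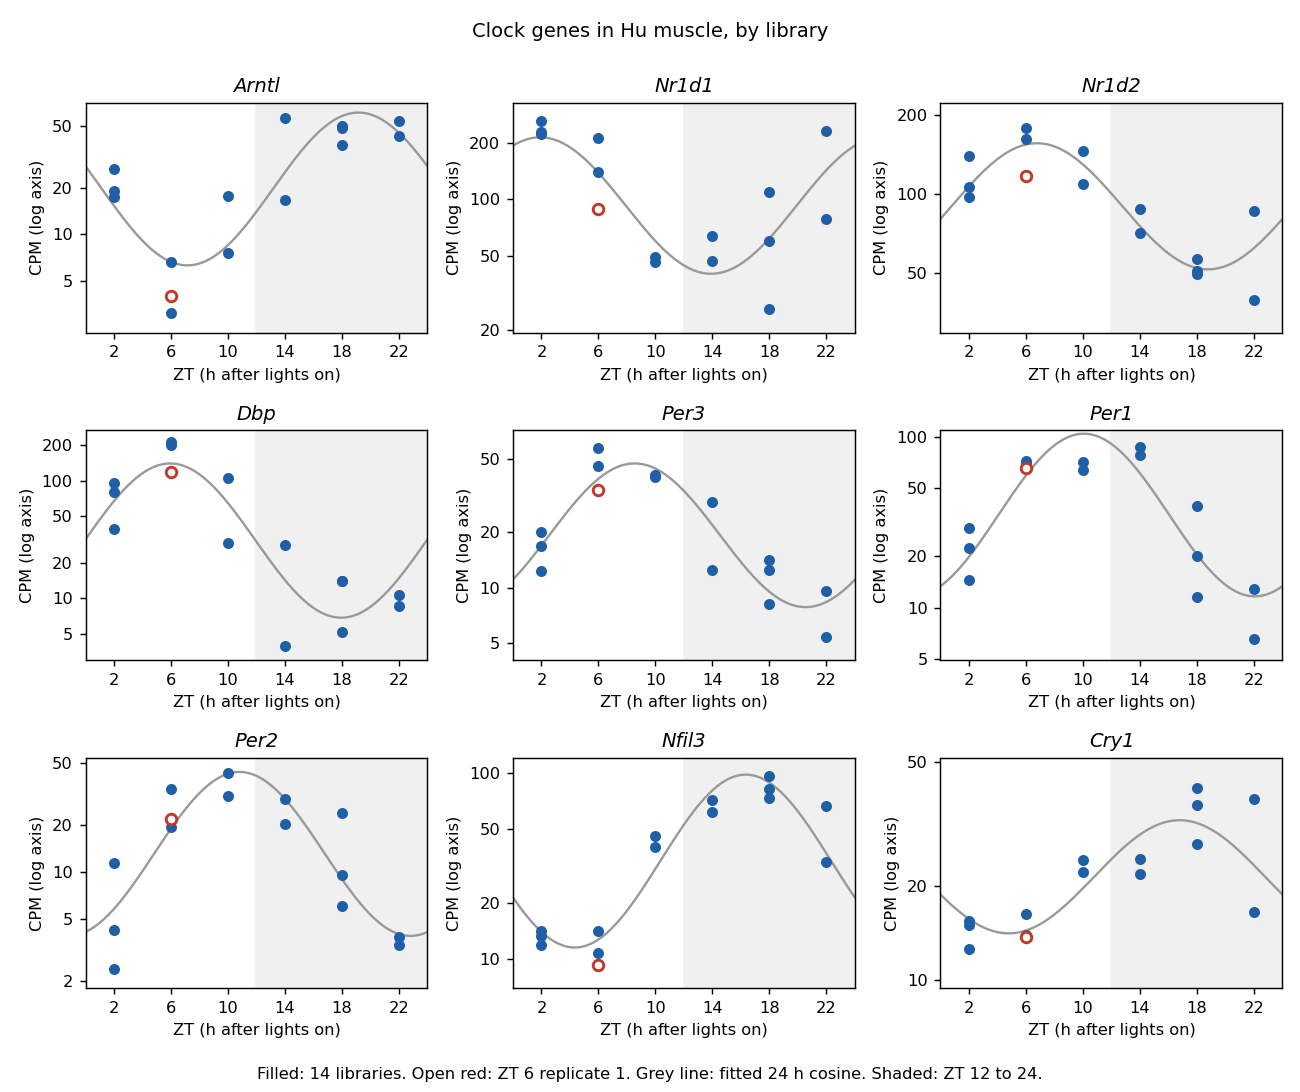
Levels of 9 clock genes in Hu muscle (CPM, log axis) against ZT, with 1 point per library; the open red point is ZT 6 replicate 1, the line is the fitted 24 h cosine and the shaded area is ZT 12 to 24. The peaks run from Nr1d1 at ZT 1.91 through Dbp, Nr1d2 and the Period genes to Nfil3, Cry1 and Arntl at ZT 19.2.

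The promoters of 4 of these genes, as RefSeq's GRCm38.p6 annotation places them, are shown for the clock sequences they hold in the 250 bases before the annotated start. Searched on both strands were the E-box CACGTG, the D-box TTATGCAA or TTACGTAA, and the half-site AGGTCA that REV-ERB and ROR receptors bind; matches are in capitals, and a match on the opposite strand reads TGACCT for the half-site. Ciart (chromosome 3, chr3:95882229-95882478, minus strand) has 3 E-boxes. Per1 (chromosome 11, chr11:69098699-69098948, plus strand) has 1 of each sequence. Cry1 (chromosome 10, chr10:85185055-85185304, minus strand) has 1 E-box and Nr1d2 (chromosome 14, chr14:18239107-18239356, minus strand) has 1 half-site.
Ciart promoter: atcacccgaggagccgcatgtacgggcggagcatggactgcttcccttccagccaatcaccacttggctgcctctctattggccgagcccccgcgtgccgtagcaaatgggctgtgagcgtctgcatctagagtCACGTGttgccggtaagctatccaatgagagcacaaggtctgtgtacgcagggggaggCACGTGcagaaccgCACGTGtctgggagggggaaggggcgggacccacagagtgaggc
Per1 promoter: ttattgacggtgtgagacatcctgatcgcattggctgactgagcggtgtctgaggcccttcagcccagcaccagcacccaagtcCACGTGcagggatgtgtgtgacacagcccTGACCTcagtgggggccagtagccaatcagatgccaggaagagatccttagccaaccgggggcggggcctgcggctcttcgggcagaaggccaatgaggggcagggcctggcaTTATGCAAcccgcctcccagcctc
Cry1 promoter: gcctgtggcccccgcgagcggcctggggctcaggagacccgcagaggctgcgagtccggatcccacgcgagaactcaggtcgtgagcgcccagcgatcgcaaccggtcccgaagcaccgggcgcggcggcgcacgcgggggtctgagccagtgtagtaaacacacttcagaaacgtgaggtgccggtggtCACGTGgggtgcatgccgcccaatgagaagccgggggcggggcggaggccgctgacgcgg
Nr1d2 promoter: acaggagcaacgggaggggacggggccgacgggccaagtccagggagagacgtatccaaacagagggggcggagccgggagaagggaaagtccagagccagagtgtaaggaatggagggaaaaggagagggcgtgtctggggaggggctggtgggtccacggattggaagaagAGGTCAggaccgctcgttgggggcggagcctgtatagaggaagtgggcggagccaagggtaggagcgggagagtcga
Counted per gene, with a match in any listed promoter, the E-box stood in 3 of the 10 rhythmic clock genes with a listed promoter. It stood in 14 of 106 rhythmic genes (13.2%), in 9.70% of tested genes and in 6.86% of all 27025 genes with a promoter. The half-site stood in 15 of the 106 rhythmic genes (14.2%), in 13.1% of tested genes and in 15.8% of all genes with a promoter, and the D-box in 2, in 0.895% and in 0.944%. These are matches of letters in 1 short window and no test was made of them.

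Among the genes that carry the clock's output, Dbp (ENSMUSG00000059824) had the largest log2 amplitude of all rhythmic genes, 2.18 ± 0.33. It measured 95.8, 38.9 and 80.4 CPM at ZT 2, 118, 200.5 and 215 at ZT 6, 29.6 and 105 at ZT 10, 28.6 and 3.93 at ZT 14, 5.12, 14.1 and 14.1 at ZT 18, and 10.7 and 8.66 at ZT 22. All 6 libraries of ZT 2 and 6 lay above all 7 of ZT 14, 18 and 22, while the 2 of ZT 10 differed by more than 3-fold. The peak was at ZT 5.94 ± 0.649 h and the fitted change 20.6-fold (adjusted p = 0.0107). Nfil3 (ENSMUSG00000056749), the repressor that binds the same sites, measured 13.4, 14.2 and 11.98 CPM at ZT 2, 9.34, 10.8 and 14.1 at ZT 6, 45.9 and 40.3 at ZT 10, 62.2 and 72.2 at ZT 14, 96.5, 82.0 and 73.3 at ZT 18, and 33.2 and 67.0 at ZT 22. All 6 libraries of ZT 2 and 6 lay below the other 9, with no overlap. The fit placed its peak at ZT 16.3 ± 0.378 h, in the middle of the night (log2 amplitude 1.54 ± 0.14, adjusted p = 0.000558), and it stayed rhythmic under every alternative that was run.

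Ciart, a repressor of BMAL1 and CLOCK, measured 5.04, 1.04 and 2.08 CPM at ZT 2, 5.96, 17.2 and 17.4 at ZT 6, 1.83 and 4.13 at ZT 10, 1.39 and 0.969 at ZT 14, 1.03, 0.434 and 1.18 at ZT 18, and 0.647 and 0.706 at ZT 22. The 3 libraries of ZT 6 were the highest, and its peak was at ZT 6.78 ± 0.756 h (log2 amplitude 1.82 ± 0.33, adjusted p = 0.0141). Usp2, a deubiquitinase under clock control, measured 163, 103 and 125 CPM at ZT 2, 184, 247 and 326 at ZT 6, 196 and 291 at ZT 10, 193 and 104 at ZT 14, 89.1, 126 and 131 at ZT 18, and 78.1 and 99.6 at ZT 22. The libraries of ZT 6 and 10 were high, with ZT 14 replicate 1 inside their range, and the peak was at ZT 8.63 ± 0.694 h (log2 amplitude 0.74 ± 0.14, adjusted p = 0.0261). Tef, the closest relative of Dbp in the list, fell just short (log2 amplitude 0.46 ± 0.10, peak ZT 8.70 ± 0.758 h, adjusted p = 0.0535, and 0.0504 without ZT 6 replicate 1). The cell cycle kinase Wee1 did not pass with all libraries (adjusted p = 0.0828) and passed without ZT 6 replicate 1 (0.0288), its highest library, and without ZT 14 replicate 2. Hlf, Bhlhe40, Bhlhe41, Nampt, Por and Tsku did not pass, and their adjusted p-values ran from 0.153 for Bhlhe40 to 0.785 for Por. None of 7 tested clock modifying enzymes passed with edgeR or DESeq2. At an unadjusted p under 0.05 there were 3 with edgeR, against 2404 of all 13469.

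The clock genes also gave a time for each library, read as the ZT at which the cosine fits of the other 14 libraries best matched its levels of the 18 genes. This clock time lay between 0.1 and 2.9 h from the labelled time, with a median of 1.5 h, and replicates of one labelled time differed by 1.4 to 4.45 h. The library that stood apart read ZT 6.45, 0.45 h from its label. ZT 2 replicates 1 and 2 read ZT 3.7 and ZT 23.8, ZT 14 replicates 1 and 2 read ZT 12.3 and ZT 16.75, and ZT 22 replicates 1 and 2 read ZT 23.15 and ZT 19.45. The same reading in the 12 Mu libraries, each against the other 11, lay within 0 to 1.55 h of the label, with a median of 0.55 h, and replicates there differed by 0 to 1.55 h. The difference between the arms in this spread was not tested.

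Among glucocorticoid responsive genes, those that passed had peaks around and after dusk. Of 21 tested, 7 were rhythmic (6 without ZT 6 replicate 1, 6 without ZT 14 replicate 2 and 7 without both), against 1.0% of all genes. Of the 7, 6 peaked at ZT 12 to 18, a window that held 42.2% of all rhythmic genes. Per1, described above, belongs to this list too. Tsc22d3 (ENSMUSG00000031431), which encodes the glucocorticoid-induced leucine zipper, measured 92.9, 69.7 and 71.8 CPM at ZT 2, 113, 120.5 and 146 at ZT 6, 145 and 260.5 at ZT 10, 317 and 224 at ZT 14, 189, 188 and 147 at ZT 18, and 132 and 117 at ZT 22. The 3 libraries of ZT 2 were the lowest of the 15 and ZT 14 replicate 1 the highest. Its fitted peak fell at ZT 13.6 ± 0.504 h (log2 amplitude 0.79 ± 0.11, adjusted p = 0.00517). Zbtb16, a zinc finger transcription factor, lay between 36.4 and 53.4 CPM in the 6 libraries of ZT 2 and 6 and between 73.7 and 149 CPM in the other 9 (peak ZT 15.3 ± 0.611 h, log2 amplitude 0.88 ± 0.13, adjusted p = 0.0131).

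Ddit4 (ENSMUSG00000020108), which encodes REDD1, an inhibitor of mTORC1 that lowers protein synthesis, measured 8.48, 7.48 and 6.57 CPM at ZT 2, 18.7, 9.70 and 10.3 at ZT 6, 24.1 and 20.8 at ZT 10, 109 and 103 at ZT 14, 25.3, 7.38 and 10.2 at ZT 18, and 11.6 and 7.88 at ZT 22. Both libraries of ZT 14 stood far above all others. The fitted peak was at ZT 12.8 ± 0.788 h (log2 amplitude 1.46 ± 0.32, adjusted p = 0.019, and 0.0391 without ZT 14 replicate 2). Glul, the glutamine synthetase, by which muscle makes glutamine for export, measured 202, 108 and 299 CPM at ZT 2, 479, 326 and 368 at ZT 6, 573 and 594 at ZT 10, 690.5 and 1120.0 at ZT 14, 791, 236 and 521 at ZT 18, and 282 and 204 at ZT 22. ZT 14 replicate 2 was its highest library, and the replicates of ZT 18 spread over more than 3-fold. The peak was at ZT 12.8 ± 0.691 h (log2 amplitude 1.05 ± 0.20, adjusted p = 0.0323, and 0.0826 without ZT 14 replicate 2). Fkbp5, a co-chaperone of the glucocorticoid receptor, measured 26.9, 67.2 and 36.0 CPM at ZT 2, 36.1, 34.5 and 36.7 at ZT 6, 115 and 95.4 at ZT 10, 88.7 and 366 at ZT 14, 101, 95.2 and 119 at ZT 18, and 94.4 and 115 at ZT 22. The high value of 366 CPM in ZT 14 replicate 2 was more than 3 times the next. Its peak was at ZT 15.6 ± 0.876 h and its adjusted p 0.0434 with all libraries, 0.0588 without ZT 6 replicate 1 and 0.0931 without ZT 14 replicate 2. Cebpb, a bZIP transcription factor, peaked at ZT 12.5 ± 0.668 h (log2 amplitude 0.54 ± 0.10, adjusted p = 0.0293, and 0.0554 without ZT 14 replicate 2). Without ZT 14 replicate 2, Cdkn1a and Dusp1 passed instead. The metallothionein genes Mt1 and Mt2 had log2 amplitudes of 1.32 ± 0.45 and 1.38 ± 0.54 and did not pass (adjusted p = 0.0587 and 0.0755); they are among the genes that were high in that library.

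Immediate early genes, which muscle induces within minutes of contraction or stress, had early night peaks where they passed. Of 22 tested, 3 were rhythmic, all at ZT 12 to 18, against 1.0% of all tested genes; over all rhythmic genes 42.2% peaked in that window. At an unadjusted p under 0.05 there were 15 of the 22 with edgeR, against 2404 of all 13469. DESeq2 called 8 of the 22, and 773 of all 13469. Jun (ENSMUSG00000052684) measured 78.7, 65.9 and 52.9 CPM at ZT 2, 84.1, 66.1 and 86.3 at ZT 6, 102 and 121 at ZT 10, 190.3 and 159 at ZT 14, 142, 94.0 and 108 at ZT 18, and 91.2 and 76.1 at ZT 22. Both libraries of ZT 14 were the highest of all, and the peak was at ZT 14.1 ± 0.554 h (log2 amplitude 0.62 ± 0.09, adjusted p = 0.00808). Atf3 measured 4.61, 7.39 and 4.53 CPM at ZT 2, 1.83, 3.04 and 5.05 at ZT 6, 31.2 and 9.36 at ZT 10, 76.4 and 22.2 at ZT 14, 81.4, 6.72 and 31.8 at ZT 18, and 3.10 and 7.70 at ZT 22. All 6 libraries of ZT 2 and 6 were low, and ZT 18 replicate 2 and ZT 22 replicate 1 fell within their range. The 3 libraries of ZT 18 ran from 6.72 to 81.4 CPM. The fit gave ZT 14.98 ± 0.922 h and a log2 amplitude of 1.78 ± 0.41 (adjusted p = 0.0347). The orphan receptor gene Nr4a3, with a log2 amplitude of 2.05 ± 0.42 and a peak at ZT 14.9 ± 0.831 h, passed with all libraries (adjusted p = 0.0465) and neither without ZT 6 replicate 1 (0.0584) nor without ZT 14 replicate 2 (0.06). Other immediate early genes, picked after the values were seen, did not pass: Fos (adjusted p = 0.212), Egr1 (0.222) and Nr4a1 (0.203).

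Of 24 tested heat shock and chaperone genes, 2 passed with all libraries (1.0% of all tested genes did) and 4 without ZT 6 replicate 1 (1.51% of all), with 3 without ZT 14 replicate 2 and 5 without both. Dnaja1, an HSP70 co-chaperone, measured 29.8, 31.7 and 30.8 CPM at ZT 2, 35.2, 25.4 and 30.5 at ZT 6, 41.8 and 42.9 at ZT 10, 74.2 and 45.0 at ZT 14, 55.6, 60.02 and 82.4 at ZT 18, and 31.1 and 51.0 at ZT 22. The fitted peak lay at ZT 16.1 ± 0.675 h (log2 amplitude 0.59 ± 0.09, adjusted p = 0.0131), with ZT 18 replicate 3 the highest library. Dnajb4, of the same family, peaked at ZT 13.8 ± 0.745 h (log2 amplitude 0.55 ± 0.11, adjusted p = 0.0419, and 0.0826 without ZT 14 replicate 2). Hsp90aa1 and Dnajb1 passed without ZT 6 replicate 1 (adjusted p = 0.0392 and 0.0353). In that library Hsp90aa1 measured 116 CPM, against 43.5 and 32.6 CPM in the other libraries of ZT 6. Hspa1a and Hspa1b, a near-identical pair whose reads may be shared, had log2 amplitudes of 1.34 ± 0.37 and 1.29 ± 0.36 and adjusted p-values of 0.0546 and 0.0513, and both passed without ZT 14 replicate 2. None of 3 cold inducible RNA binding genes and none of 21 unfolded protein response genes passed with edgeR. At an unadjusted p under 0.05 there were 0 and 6, against 2404 of all 13469, and DESeq2 called 0 and 2, against 773.

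Of 12 tested genes of PPAR receptors and PGC-1 coactivators, Nrip1 was the one that passed, against 1.0% of all tested genes. With edgeR, 3 of the 12 had an unadjusted p under 0.05, against 2404 of all 13469. Nrip1 (ENSMUSG00000048490), which encodes RIP140, a co-repressor of nuclear receptors that restrains oxidative genes in muscle, had the smallest p of all genes. It measured 30.2, 23.7 and 30.9 CPM at ZT 2, 56.1, 44.0 and 65.7 at ZT 6, 88.3 and 105 at ZT 10, 71.6 and 66.3 at ZT 14, 46.4, 40.0 and 37.2 at ZT 18, and 25.7 and 31.1 at ZT 22. The 4 libraries of ZT 10 and 14 lay above all 11 others. It peaked at ZT 11.1 ± 0.300 h (log2 amplitude 0.92 ± 0.08, adjusted p = 0.000392). Slc25a25 (ENSMUSG00000026819), a calcium-regulated carrier of ATP-Mg and phosphate in the mitochondrial inner membrane that is in none of the lists, measured 6.58, 9.70 and 8.39 CPM at ZT 2, 12.2, 8.63 and 17.3 at ZT 6, 49.0 and 82.8 at ZT 10, 66.0 and 62.6 at ZT 14, 19.3, 12.5 and 20.5 at ZT 18, and 5.99 and 9.97 at ZT 22. The 4 libraries of ZT 10 and 14 were again the highest, here more than 2-fold above all others. It peaked at ZT 12.3 ± 0.407 h, close to lights off, with a fitted change of 10.5-fold (log2 amplitude 1.70 ± 0.20, adjusted p = 0.000875).

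Ppp1r3c (ENSMUSG00000067279), a subunit that brings protein phosphatase 1 to glycogen and so favours glycogen synthesis, measured 234, 219 and 179.7 CPM at ZT 2, 52.6, 148 and 121 at ZT 6, 764 and 436 at ZT 10, 701 and 758 at ZT 14, 1007, 1029 and 709 at ZT 18, and 468 and 904 at ZT 22. All 6 libraries of ZT 2 and 6 lay below all 9 others, and ZT 6 replicate 1 was the lowest. The fit placed its peak at ZT 16.9 ± 0.671 h (log2 amplitude 1.502 ± 0.23, adjusted p = 0.023, and 0.018 without that library). It was the only one of 14 tested glycogen genes to pass with edgeR, against 1.0% of all tested genes. Of the 14, 3 had an unadjusted p under 0.05 with edgeR, against 2404 of all 13469. Tbc1d1 (ENSMUSG00000029174), a Rab GTPase-activating protein that controls the movement of the glucose transporter GLUT4, measured 41.2, 28.3 and 38.9 CPM at ZT 2, 21.5, 44.8 and 53.7 at ZT 6, 97.1 and 112 at ZT 10, 129.5 and 138 at ZT 14, 88.0, 96.9 and 184 at ZT 18, and 64.2 and 84.4 at ZT 22. The same split held, with the 6 libraries of ZT 2 and 6 below the other 9. It peaked at ZT 15.2 ± 0.613 h (log2 amplitude 1.06 ± 0.16, adjusted p = 0.0107). It was the only one of 23 insulin and IGF signalling genes to pass with edgeR, against 1.0% of all tested genes. DESeq2 called 2 of the 23, and 773 of all 13469. With edgeR, 8 of the 23 had an unadjusted p under 0.05, against 2404 of all 13469. Pik3r1, a regulatory subunit of PI 3-kinase, had an adjusted p of 0.0671.

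Among genes of amino acid and branched chain metabolism, 2 of 20 tested passed, both of them carriers, against 1.0% of all tested genes. With edgeR, 5 of the 20 had an unadjusted p under 0.05, against 2404 of all 13469. Slc7a2, a carrier of arginine and lysine, measured 64.0, 44.9 and 53.6 CPM at ZT 2, 247, 126 and 176 at ZT 6, 245 and 169 at ZT 10, 66.8 and 113 at ZT 14, 84.7, 69.5 and 91.5 at ZT 18, and 74.8 and 55.6 at ZT 22. The 5 libraries of ZT 6 and 10 lay above all others, and the peak was at ZT 9.72 ± 0.776 h (log2 amplitude 0.90 ± 0.20, adjusted p = 0.0433). Slc38a4, a carrier of neutral amino acids, measured 122, 133 and 103 CPM at ZT 2, 52.2, 98.9 and 90.2 at ZT 6, 67.1 and 56.8 at ZT 10, 79.5 and 47.8 at ZT 14, 105, 215 and 115 at ZT 18, and 172 and 148 at ZT 22. Its 8 libraries of ZT 18, 22 and 2 lay above all 7 of ZT 6, 10 and 14, and the peak was at ZT 22.04 ± 0.682 h (log2 amplitude 0.75 ± 0.15, adjusted p = 0.0432). Slc7a8, a carrier of large neutral amino acids outside the list, peaked at ZT 11.3 ± 0.675 h (adjusted p = 0.0347), and Prodh, the first enzyme of proline breakdown, at ZT 12.6 ± 0.595 h (log2 amplitude 0.91 ± 0.15, adjusted p = 0.0137). Within the list, Ppm1k, the phosphatase that activates the branched chain dehydrogenase, passed without ZT 6 replicate 1.

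No gene passed among 20 of glucose uptake and glycolysis, 25 of the pyruvate dehydrogenase switch and fatty acid use, 22 of triglyceride storage and fat synthesis, 21 of sterol synthesis and uptake, 35 of oxidative phosphorylation and 36 of cytosolic ribosomal proteins. With edgeR, 2, 3, 6, 9, 0 and 0 of them had an unadjusted p under 0.05, and DESeq2 called 2, 1, 2, 3, 0 and 0. The highest of these counts, 9 and 3 of 21, were those of the sterol genes. Over all 13469 tested genes, 2404 had an unadjusted p under 0.05 and DESeq2 called 773. The nearest were Plin4, a lipid droplet coat gene (log2 amplitude 0.64 ± 0.16, peak ZT 11.6 ± 0.835 h, adjusted p = 0.0721), and Pfkfb4, which sets the level of the glycolytic activator fructose 2,6-bisphosphate (log2 amplitude 0.53 ± 0.13, peak ZT 11.3 ± 0.847 h, adjusted p = 0.0851). The median log2 amplitude was 0.14 over the oxidative phosphorylation genes and 0.11 over the ribosomal protein genes, below the 0.15 of all tested genes. Without ZT 14 replicate 2, Mlycd, malonyl-CoA decarboxylase, passed in the second list.

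**Figure D4:**
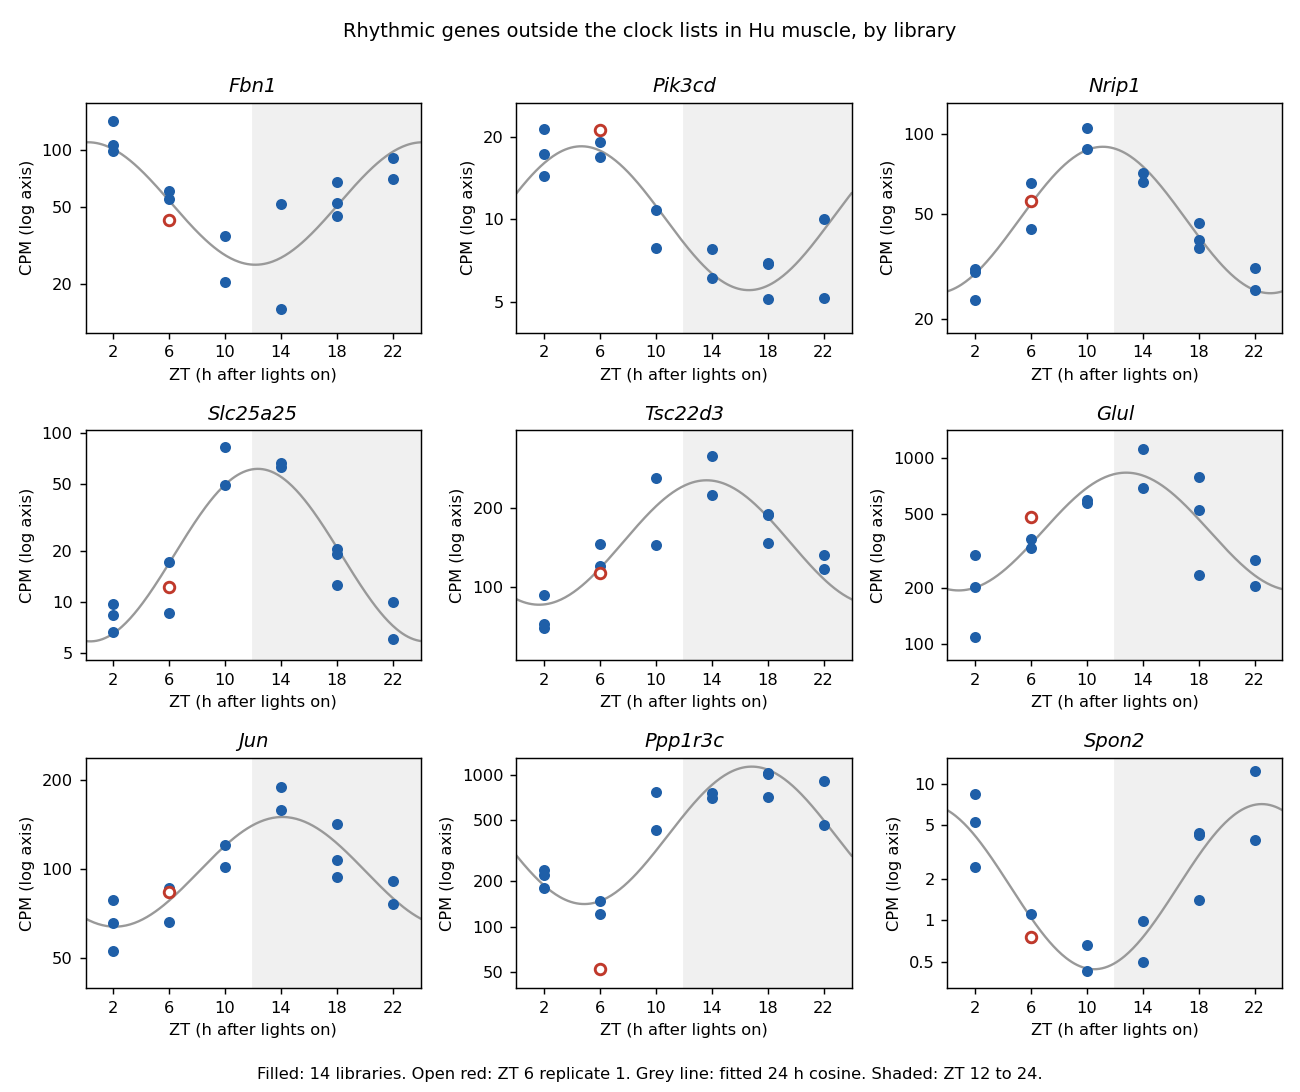
Levels of 9 rhythmic genes outside the clock lists in Hu muscle (CPM, log axis) against ZT, with 1 point per library; the open red point is ZT 6 replicate 1, the line is the fitted 24 h cosine and the shaded area is ZT 12 to 24. Fbn1 and Spon2 are high around ZT 22 and 2, Pik3cd at ZT 2 and 6, Nrip1 and Slc25a25 at ZT 10 and 14, Tsc22d3, Glul and Jun at ZT 14, and Ppp1r3c from ZT 10 to 22.

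None of 31 sarcomere and Z-disc genes, 12 slow fibre genes and 12 fast fibre genes passed with edgeR or DESeq2. At an unadjusted p under 0.05 there were 4, 1 and 0 with edgeR, against 2404 of all 13469. The slow fibre genes had a median log2 amplitude of 1.004 and still did not pass. The smallest p among them was that of Tpm3, a tropomyosin of slow fibres (log2 amplitude 0.93 ± 0.33, peak ZT 10.1 ± 1.23 h, adjusted p = 0.229). Among 23 regulators of muscle identity Myf6, the MRF4 factor of mature fibres, passed with all libraries (peak ZT 15.7 ± 0.898 h, log2 amplitude 0.58 ± 0.13, adjusted p = 0.0465) and not without ZT 6 replicate 1 (0.0576). Its level was 234 CPM in ZT 14 replicate 2 and 54.0 to 106 CPM in the other 14. Without ZT 14 replicate 2 its adjusted p was 0.0179. Of the 23 regulators, 6 had an unadjusted p under 0.05 with edgeR, against 2404 of all 13469. Of all tested genes, 1.0% passed.

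Abra, an actin-binding protein of striated muscle, lay between 109.5 and 347 CPM and peaked at ZT 15.2 ± 0.674 h (log2 amplitude 0.68 ± 0.11, adjusted p = 0.0131). Lrrc30, picked like Abra after its values were seen, peaked at ZT 15.7 ± 0.733 h (log2 amplitude 0.88 ± 0.15, adjusted p = 0.019). Of 31 genes of excitation, ion channels and calcium, Kcna5, a voltage-gated potassium channel, passed narrowly (peak ZT 11.5 ± 0.714 h, log2 amplitude 0.54 ± 0.11, adjusted p = 0.0465), and its 4 libraries of ZT 10 and 14 lay above all 11 others. It did not pass without ZT 14 replicate 2 (adjusted p = 0.0814). With edgeR, 7 of the 31 had an unadjusted p under 0.05, against 2404 of all 13469, and 1.0% of all tested genes passed. Ddit4 was the only one of 24 atrophy and FOXO genes to pass, against 1.0% of all tested genes. At an unadjusted p under 0.05 there were 11 of the 24 with edgeR, against 2404 of all 13469. DESeq2 called 6 of the 24, and 773 of all 13469. Without ZT 14 replicate 2, Cdkn1a passed as well. Foxo1 had a log2 amplitude of 0.72 ± 0.22 (adjusted p = 0.0828) and Trim63, a ubiquitin ligase of muscle breakdown, 0.49 ± 0.32 (adjusted p = 0.263).

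Of 32 tested collagen and matrix genes, Timp3 and Fbn1 passed and 16 had an unadjusted p under 0.05 with edgeR. Over all 13469 tested genes, 1.0% passed and 2404 had an unadjusted p under 0.05. Fbn1 (ENSMUSG00000027204), fibrillin-1 of elastic microfibrils, measured 106, 141 and 98.1 CPM at ZT 2, 42.8, 55.0 and 60.7 at ZT 6, 20.4 and 35.6 at ZT 10, 52.2 and 14.8 at ZT 14, 45.3, 68.3 and 52.7 at ZT 18, and 70.0 and 90.3 at ZT 22. The 3 libraries of ZT 2 were the highest and the lowest were those of ZT 10 with ZT 14 replicate 2. Its fitted peak fell at ZT 0.164 ± 0.610 h (log2 amplitude 1.06 ± 0.19, adjusted p = 0.0311). Spon2 (ENSMUSG00000037379), a secreted matrix protein outside that list, measured 2.46, 8.45 and 5.30 CPM at ZT 2, 0.759, 1.12 and 0.745 at ZT 6, 0.662 and 0.426 at ZT 10, 0.988 and 0.499 at ZT 14, 1.42, 4.38 and 4.21 at ZT 18, and 3.90 and 12.4 at ZT 22. The 8 libraries of ZT 18, 22 and 2 lay above all 7 of ZT 6, 10 and 14. It had the largest log2 amplitude among genes with late night peaks, 2.01 ± 0.27, with a peak at ZT 22.5 ± 0.466 h (adjusted p = 0.00436). Outside the list, and picked after their values were seen, Adamts5, a protease of matrix proteoglycans, peaked at ZT 23.86 ± 0.613 h (log2 amplitude 0.56 ± 0.10, adjusted p = 0.0311), and Loxl4, a lysyl oxidase of collagen crosslinking, at ZT 2.22 ± 0.793 h (adjusted p = 0.0465). Neither Adamts5 nor Loxl4 passed without ZT 14 replicate 2 (adjusted p = 0.0517 and 0.0588). Of the 15 fits that left out 1 library, they passed in 7 and 1. The metalloprotease inhibitor Timp3 peaked on the other side of the day, at ZT 12 ± 0.493 h (log2 amplitude 0.39 ± 0.06, adjusted p = 0.0183), as did Adamtsl4, a microfibril-associated protein, at ZT 11.9 ± 0.431 h (log2 amplitude 0.74 ± 0.09, adjusted p = 0.00428).

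Picked after their values were seen, Col5a1, Col15a1, Fn1 and Sparc had fitted peaks at ZT 0.376, ZT 0.702, ZT 0.941 and ZT 0.696 and adjusted p-values of 0.201, 0.152, 0.18 and 0.238, and did not pass. Beside this, the summed level of 7 fibroblast markers was highest at ZT 2, with a mean of 1336 CPM, and lowest at ZT 14, with 801.8 CPM, and the 6 tendon markers had their highest mean at ZT 2 as well (806 CPM) and their lowest at ZT 6 (353 CPM). None of the markers in either list passed with edgeR, 2 and 1 had an unadjusted p under 0.05, and DESeq2 called 1 in each. Over all 13469 tested genes there were 2404 at that unadjusted p, and DESeq2 called 773. The highest single sums of both lists (1596 and 1152 CPM) were those of ZT 2 replicate 2. Their part in the matrix gene results was not tested.

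Among the remaining genes with the smallest p in each window, Auts2 (ENSMUSG00000029673) had the smallest p at ZT 18 to 24. It measured 19.4, 17.2 and 17.7 CPM at ZT 2, 7.08, 13.4 and 10.5 at ZT 6, 12.5 and 10.6 at ZT 10, 13.9 and 17.7 at ZT 14, 24.9, 26.7 and 26.8 at ZT 18, and 30.9 and 31.4 at ZT 22. The 5 libraries of ZT 18 and 22 lay above all 10 others, and the peak was at ZT 20.3 ± 0.403 h (log2 amplitude 0.82 ± 0.09, adjusted p = 0.00113). In the same window Mboat1, an acyltransferase of phospholipids, peaked at ZT 20.6 ± 0.584 h (adjusted p = 0.0149), Cdon, a cell surface protein that promotes myogenic differentiation, at ZT 23.5 ± 0.506 h (adjusted p = 0.0161), and Enpep, aminopeptidase A, at ZT 23.7 ± 0.497 h (adjusted p = 0.0146). In the early day Pik3cd (ENSMUSG00000039936), the delta catalytic subunit of PI 3-kinase, measured 17.3, 21.2 and 14.3 CPM at ZT 2, 21.1, 16.8 and 19.2 at ZT 6, 7.82 and 10.8 at ZT 10, 7.75 and 6.08 at ZT 14, 6.83, 5.12 and 6.89 at ZT 18, and 10.0 and 5.17 at ZT 22. All 6 libraries of ZT 2 and 6 lay above all 9 others (peak ZT 4.65 ± 0.598 h, log2 amplitude 0.87 ± 0.12, adjusted p = 0.00517). Cecr2, a bromodomain protein, and St6galnac3, a sialyltransferase, peaked at ZT 3.89 ± 0.670 h and ZT 2.11 ± 0.584 h (adjusted p = 0.0131 and 0.0195), and Tmem86a at ZT 5.82 ± 0.707 h (adjusted p = 0.0207).

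Before lights off, Tob2 (ENSMUSG00000048546), an anti-proliferative protein that also promotes the removal of mRNA tails, measured 41.0, 35.8 and 44.4 CPM at ZT 2, 58.1, 68.2 and 82.6 at ZT 6, 102 and 112 at ZT 10, 99.6 and 92.8 at ZT 14, 73.9, 39.4 and 43.0 at ZT 18, and 39.7 and 29.9 at ZT 22. The 4 libraries of ZT 10 and 14 lay above all others (peak ZT 11 ± 0.392 h, log2 amplitude 0.86 ± 0.10, adjusted p = 0.00263). Tspan4, a tetraspanin, peaked at ZT 9.62 ± 0.439 h (log2 amplitude 0.78 ± 0.10, adjusted p = 0.00435). After lights off, the alpha-arrestin gene Arrdc3 peaked at ZT 13.6 ± 0.528 h (log2 amplitude 0.998 ± 0.14, adjusted p = 0.00436). Its relative Arrdc2 had a fitted peak close to lights off, at ZT 11.3 ± 0.699 h (log2 amplitude 1.49 ± 0.31, adjusted p = 0.0433, and 0.0879 without ZT 14 replicate 2). Arrdc3 measured 248 CPM in ZT 14 replicate 2 and 29.8 to 141 CPM in the others, and without that library its adjusted p was 0.00233. Noct, the circadian phosphatase nocturnin, peaked at ZT 12.2 ± 0.642 h (log2 amplitude 0.66 ± 0.12, adjusted p = 0.0299). The MAP kinase phosphatase genes Dusp7 and Dusp16 peaked at ZT 10.0 ± 0.632 h and ZT 15.1 ± 0.530 h (adjusted p = 0.0195 and 0.00808).

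Leaving out ZT 6 replicate 1 raised the count at ZT 0 to 6 from 18 to 49. Among the 10 gained genes with the smallest p were Slc41a1, a magnesium transporter (peak ZT 5.77, log2 amplitude 0.45, adjusted p = 0.011 against 0.183 with the library), Prr13 (ZT 22.5, 0.0157 against 0.15) and Ank2, an ankyrin of membrane domains (ZT 4.49, 0.0174 against 0.149). Also among them were Unc13c, Pcp4l1, 1700017B05Rik, Gna13, Polr1b and Trp53i11. Kdr, the main VEGF receptor of endothelium, passed as well (adjusted p = 0.044 against 0.0729), with Hif3a (0.0445 against 0.0513) and the pericyte marker Rgs5 (0.0487 against 0.225). In the library left out, the 8 endothelial markers summed to 366.6 CPM, the lowest of the 15 (393 to 606 CPM in the others). The 12 lost genes were Acvr2a, Zfp462, Tshz1, Cry1, Gsta3, Fkbp5, Kalrn, Rras2, Miga2, Myf6, Nr4a3 and Ylpm1, with adjusted p-values between 0.0542 and 0.0655 without the library.

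With all libraries and edgeR, none passed among 9 fat cell, 8 endothelial, 6 smooth muscle, 8 macrophage, 6 Schwann cell, 5 satellite cell and 4 tested red blood cell markers. At an unadjusted p under 0.05 there were 0, 3, 1, 0, 0, 0 and 4 of them, and DESeq2 called 1 endothelial marker and none of the others. Over all 13469 tested genes there were 2404 at that unadjusted p, and DESeq2 called 773. Only Cd4 of 9 lymphocyte markers and Serpina1a of 6 hepatocyte markers were high enough to be tested, and neither passed (adjusted p = 0.595 and 0.546). The hepatocyte gene Alb was at 0.106 to 12.4 CPM in 13 libraries, 77.1 CPM in ZT 18 replicate 1 and 43.0 CPM in ZT 22 replicate 1. The fat cell sum was lowest at ZT 10 (mean 581 CPM) and highest at ZT 14 (2370 CPM).

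Against muscle of the Mu arm, the comparison addresses whether muscle keeps another daily timing when the hepatocytes are human. Fitted alone, the 12 Mu libraries gave 1749 of 13199 rhythmic genes (13.3%), a count that fell to between 970 and 1109 without Mu ZT 10 replicate 2 or any 1 of the Mu libraries of ZT 14 and 22, and 96 of the 135 Hu genes were among them, which is 71.1% of the Hu list and 5.49% of the Mu list. For 93 of these 96 the fitted peak was earlier in Hu. The median difference was -3.02 h, with a range from -6.52 to 1.80 h, and the 95% interval of the difference lay below 0 for 71 genes, spanned 0 for 25 and lay above 0 for none. These intervals used a normal quantile, which is narrow for so few libraries, and were not adjusted for the number of genes. The 96 genes were measured in the same libraries, so they are not independent measures of a shift. The median log2 amplitude of the 96 was 0.72 in Hu and 0.69 in Mu.

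**Figure D5:**
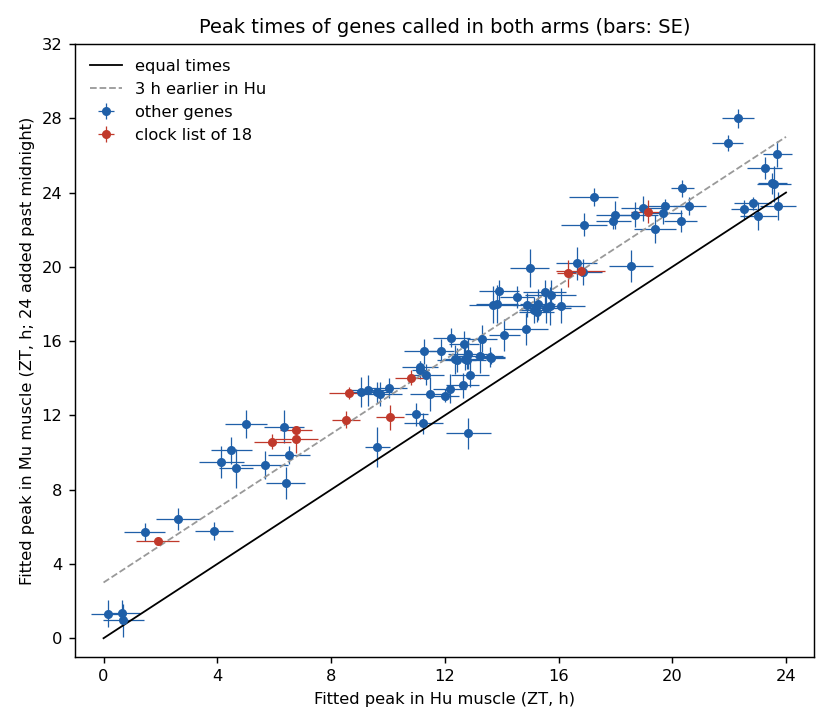
Fitted peak time in Hu muscle (horizontal, ZT in h) against that in Mu muscle (vertical, ZT in h, with 24 added where the Mu peak falls in the next day) for the 96 genes rhythmic in both arms, with bars of 1 SE; red points belong to the clock list. The dashed line marks a peak 3 h earlier in Hu. The peak was earlier in Hu for 93 of the 96, with a median difference of -3.02 h. The differences ran from -6.52 to 1.80 h, and 27 of the 96 genes peaked within 2 h in both arms.

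Tested directly, a different rhythm was found for 10 of 14197 genes (0.0704%), of which 7 were rhythmic in Hu, namely Nr1d1, Nr1d2, Usp2, Nrip1, Auts2, Leo1 and Gpc4. Nrip1, not a clock gene by the list, peaked at ZT 11.1 ± 0.300 h in Hu and ZT 14.4 ± 0.480 h in Mu, -3.32 h apart with a 95% interval from -4.43 to -2.21 h (edgeR adjusted p = 0.0358). Usp2 was -4.57 h apart (-6.09 to -3.06 h, adjusted p = 0.0319) and Auts2 -3.89 h (-5.09 to -2.69 h, adjusted p = 0.0319). This count was 0 without Hu ZT 2 replicate 1, 1 without Hu ZT 6 replicate 3, 3, 5 and 19 without Hu ZT 18 replicates 1, 2 and 3, and 4 without Hu ZT 22 replicate 1. Without any 1 Mu library other than ZT 2 replicate 2 it was between 0 (ZT 14 replicate 2) and 6. Smaller differences were found for other genes, picked after their values were seen. Spon2 peaked at ZT 22.5 ± 0.466 h in Hu and ZT 23.1 ± 0.496 h in Mu, a difference of -0.573 h (-1.91 to 0.761 h), Arrdc2 differed by -0.318 h (-2.08 to 1.44 h), Marcks by 0.448 h (-1.45 to 2.35 h), Fbn1 by -1.16 h (-3.02 to 0.703 h) and Timp3 by -1.07 h (-2.27 to 0.135 h). Their adjusted p-values for a different rhythm were 0.725, 0.985, 0.639, 0.632 and 0.400, which does not show that the peaks were equal. In all, 27 of the 96 genes peaked within 2 h in both arms, and whether they differ from the shifted genes was not tested.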

How the data were processed

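Bulk RNA-seq was made from skeletal muscle with RNeasy RNA and the NEBNext Ultra II Directional kit, per the labels' protocols, and the submitters' processing notes name STAR and the builds GRCm38, mm10, hg38, GRCh38 and hg19. The authors deposited whole-number counts per gene. The counting tool, annotation and strand setting are not given in the sources used here. Of 20415 genes, 1668 had 0 counts in Hu muscle. Another 44 per-sample columns of the table were not used.

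Low counts were removed with filterByExpr, libraries were scaled by TMM, and the paired sine and cosine of a 24 h period were tested as one with edgeR 4.0.16 (R 4.3.3), in its quasi-likelihood F test with Benjamini-Hochberg adjustment over all tested genes at 0.05. Every adjusted p is from that test unless DESeq2 is named. Peak times and log2 amplitudes come from least squares on log2 CPM with a prior count of 2, with delta-method standard errors. The difference between arms was an arm by rhythm term over both. Alternatives were DESeq2 1.42.0, limma 3.58.1 (voom with quality weights), other scalings, filters and models, a replicate block, and leaving out each library. On simulated counts for 13317 genes of Hu muscle, 52% of genes with a log2 amplitude of 0.5 and 86% of those with 1 were recovered, with 2 false calls among 140. The simulated counts were drawn independently at the labelled times, with no library made to stand apart. These shares therefore need not hold for the 135 genes called in the real libraries.

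Genes named are those of the clock lists, the 5 with the smallest p in each 6 h window of peak time, the 10 largest amplitudes, the smallest p of each list, and the 10 with the smallest p among those gained without ZT 6 replicate 1. Other genes were named after their values were seen. The lists, the rule and the libraries left out were chosen with earlier results of these data known. A few genes that the rule names are not reported here.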

Additional observations from a re-analysis of the deposited data

Results flagged for a closer look

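The rhythm differed between Hu and Mu muscle by the direct test for 7 genes that were rhythmic in Hu muscle. The edgeR adjusted p was 0.0198 for Nr1d2, 0.0292 for Gpc4, 0.0319 for Usp2, 0.0319 for Auts2, 0.0358 for Nrip1, 0.0396 for Nr1d1 and 0.0482 for Leo1. Of 27 fits that each left out 1 library, the difference no longer passed in 2 for Nr1d2, 7 for Gpc4, 9 for Usp2, 13 for Auts2, 15 for Nrip1, 21 for Nr1d1 and 21 for Leo1. With the replicate number as a block, Nr1d1 did not pass (adjusted p = 0.0661).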

How the results depend on the processing

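The count of 135 rhythmic genes in Hu muscle was 773 with DESeq2, 585 with limma-voom quality weights, 1104 with both arms in one fit, 80 with a replicate block, 24 with 24 h and 12 h terms, 5 with ZT as a factor and 11 with replicates 1 and 2 only. It was 211 without both ZT 6 replicate 1 and ZT 14 replicate 2, an alternative chosen after seeing the data, with 99 of the 135 genes shared. Leaving out 1 library gave 51 to 204. RLE size factors gave 146, no filter 127, a mean CPM of at least 1 169 and a robust spread 135. The Mu count of 1749 was 3523 with DESeq2 and 970 to 1768 with 1 library left out. The count of 10 genes with a different rhythm was 161 with DESeq2, 10 with the replicate block, 15 with no filter and 0 to 19 with 1 library left out. The cause of these changes was not tested. Same-numbered Hu libraries did not deviate together on average (mean r = -0.0229 over 33 pairs, 11 of them over 0.1, and 5 of 15 libraries closest to their own number). Hu and Mu libraries of the same number had a mean r of 0.025 over 12 pairs, from -0.145 to 0.462. So few pairs cannot settle whether the numbers pair the samples, and the labels do not say.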
